A study of Mus musculus with 2 samples.

Results

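Alveolar type I (AT1) cells were taken from 2 single-cell RNA sequencing libraries of mouse lung, 1 of Pclaf WT and 1 of Pclaf KO mice. They are the barcodes with 1 or more unique molecular identifiers (UMIs, counted RNA molecules) of at least 3 of 7 AT1 markers, Ager, Hopx, Rtkn2, Akap5, Spock2, Igfbp2 and Pdpn. In addition, fewer than 3% of their UMIs were of Sftpc, the surfactant protein gene of alveolar type II (AT2) cells, and no UMI was of Ptprc, Pecam1, Col1a2, Msln or Foxj1, which mark immune, endothelial, mesenchymal, mesothelial and ciliated cells. The cells were thus chosen by the values of 13 genes, and those genes are given below as a description. This gate held 899 cells, 321 of 30187 kept WT barcodes and 578 of 15637 kept KO barcodes, out of 47841 barcodes in both matrices.

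AT1 cells are the thin, very wide cells that cover most of the gas exchange surface and share a basement membrane with the capillaries. After injury, AT2 cells divide and some become AT1 cells, passing through a transitional state rich in keratin 8 and in p53 target genes. YAP and TAZ, which act through TEAD factors on DNA, and NKX2-1 are known to maintain the AT1 gene programme.

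Both groups were lung cells of 8 to 10 week old mice collected 1 week after bleomycin, an agent that injures the lung, given at 1.35 U/kg per the series description. Other doses are stated elsewhere in the study, so the dose of these mice is uncertain. The KO mice lack Pclaf, a PCNA-binding factor of dividing cells, in all tissues, and the WT mice carry it. There was no uninjured library. Cells were sorted as EPCAM-positive and CD31- and CD45-negative, and the labels give 16000 cells loaded per group on 10x Genomics 3′ v3.1 chemistry. The number of mice behind each library is not given in the sources used here, so each genotype is 1 sample, no p-value can be given, and each interval below covers counting error only.

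Several features of the libraries bear on every comparison of genotypes. The WT matrix had 98171818 UMIs on 30669 barcodes, more than the cells loaded, and the KO matrix 111267567 UMIs on 17172 barcodes. The median kept barcode held 2127 UMIs in WT and 5957 in the KO library. Of the kept barcodes, 1267 in WT and 9460 in KO carried 2 or more of 8 epithelial genes and none of the immune, endothelial, mesenchymal or mesothelial gate genes, although both libraries are labelled as epithelial cells. The 2 matrices shared 163 barcodes, of which 0 were AT1 cells. Xist, which is made from the inactive X chromosome, was at 254 CPM (counts per 1000000 UMIs of the cells summed) over the whole WT library and 500 CPM over the KO library. The Y-linked genes Ddx3y, Eif2s3y, Kdm5d and Uty summed to 183 in WT and 68.1 CPM in KO. Both libraries thus held Xist and Y-linked RNA, and in different proportions. The methods describe male mice, which do not express Xist in most tissues, and the source of the Xist RNA is not known.

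Pclaf itself was nearly absent from AT1 cells of both genotypes. The WT AT1 cells held 1 Pclaf UMI in 1 of 321 cells (0.312%). The KO AT1 cells held 13 Pclaf UMIs in 4 of 578 cells (0.692%), of which 1 cell held 76.9%. Summed levels were 1.51 in WT and 4.23 CPM in KO, below 8.71 CPM in WT AT2 cells and close to 3.43 CPM in KO AT2 cells. In the screened cells (below) the order was the opposite, with 1 UMI in WT and 2 in KO (2.98 and 0.918 CPM). The library labelled KO thus held Pclaf UMIs, so counts of this gene do not bear out its label in AT1 cells, and WT and KO below name the libraries labelled so. Genotype and library cannot be told apart in any comparison of the 2.

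Sequence upstream of a few genes is shown because the values below include NKX2-1, the TEAD factors and genes named as their targets. RefSeq promoter windows (GRCm38.p6, the build of the files) were found for 6 of the 7 gate markers, with 8 start sites, and for 11 of the 15 genes that stood highest in AT1 over AT2 cells, with 18 start sites. The 250 bases before each start were searched on both strands for GGAATG (reverse CATTCC), the core of TEAD motifs, and for CTCAAG (reverse CTTGAG), a core of NKX2-1 motifs. The TEAD letters were in 12.6% of 32851 windows of the same length and in 4 of the 18 windows of the leading genes, but in 0 of the 8 windows of the gate markers. The NKX2-1 letters were in 13.3% of all windows, in 3 of the 8 windows of the gate markers and in 0 of the 18 others. Ankrd1 had a pair of TEAD matches that began 210 and 123 bases before its start, Hopx had 1 NKX2-1 match 112 bases before, and Spock2 had 1 at 207 bases before. These 3 windows are written 5′ to 3′ on the strand of the gene, with the matches in capitals. A match describes the letters of the window and not a bound site.
Ankrd1, chr19:36119845-36120094, minus strand: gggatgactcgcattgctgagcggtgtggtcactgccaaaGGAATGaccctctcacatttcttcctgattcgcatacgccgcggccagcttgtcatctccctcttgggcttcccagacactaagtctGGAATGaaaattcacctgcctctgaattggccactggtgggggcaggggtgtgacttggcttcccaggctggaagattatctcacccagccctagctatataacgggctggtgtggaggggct
Hopx, chr5:77115124-77115373, minus strand: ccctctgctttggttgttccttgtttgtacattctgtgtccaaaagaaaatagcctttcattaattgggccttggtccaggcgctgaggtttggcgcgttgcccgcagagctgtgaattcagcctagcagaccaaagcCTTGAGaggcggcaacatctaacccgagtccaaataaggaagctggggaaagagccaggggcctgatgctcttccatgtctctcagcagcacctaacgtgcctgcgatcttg
Spock2, chr10:60106007-60106256, plus strand: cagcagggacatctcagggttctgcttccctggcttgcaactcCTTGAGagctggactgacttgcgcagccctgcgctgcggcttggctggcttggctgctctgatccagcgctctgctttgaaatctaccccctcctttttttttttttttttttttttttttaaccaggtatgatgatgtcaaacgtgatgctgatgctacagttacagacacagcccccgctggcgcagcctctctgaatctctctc

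The markers that chose the cells are described first, and as they chose them they are no check of the label. Ager, the receptor RAGE of the basolateral AT1 membrane, was the most abundant gate marker, at 5451 in WT and 7973 CPM in KO AT1 cells. Hopx, a homeodomain protein without DNA binding, was at 2145 and 2351 CPM. Igfbp2, a secreted IGF-binding protein of mature AT1 cells, was at 1240 and 1054 CPM. Akap5, an anchor of protein kinase A, was at 681 and 611 CPM, Rtkn2 at 683 and 856 CPM, Spock2, a matrix proteoglycan, at 518 and 382 CPM, and Pdpn, podoplanin, at 489 and 396 CPM. In AT2 cells (Sftpc at 3% or more of UMIs and at most 1 AT1 marker), 6 of the 7 were at 4.90 CPM or less in both libraries, which the limit on markers in part fixed, and Ager was at 774 in WT and 821 CPM in KO.

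Because the cells of the KO library were deeper, detection is also given after each cell was thinned to 500 UMIs, the lowest total in either matrix. The gate was set before thinning, so shallow WT cells had to show 3 markers in fewer UMIs than KO cells. The gate thus acts on these shares in AT1 cells, and no order between libraries is read from them. Ager was then seen in 76.9% of WT and 79.2% of KO AT1 cells and Hopx in 69.5% and 56.9%. Akap5 was seen in 38.9% and 29.6%, and Igfbp2 in 38.0% and 30.3%. Without thinning the order between libraries was often the opposite, as for Akap5 at 58.3% in WT and 74.0% in KO. In ciliated cells, which should lack AT1 markers and had medians of 5744 UMIs in WT and 7579 in KO, Ager was seen in 2.97% and 4.26% at 500 UMIs. Hopx was seen in 12.9% and 18.0% of ciliated cells, the highest share of the 7 AT1 markers in that class.

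**Figure D1:**
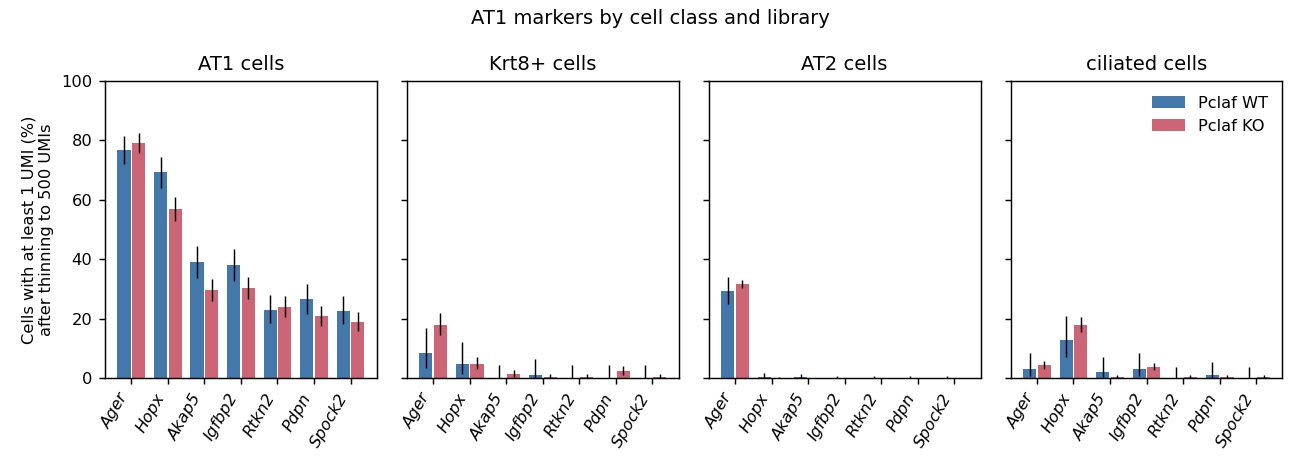
Share of cells with at least 1 UMI of each gate marker (y axis, percent) after thinning every cell to 500 UMIs, by cell class (panels) and library (colours), drawn as bars with exact 95% binomial intervals as black lines. The markers chose the AT1 cells, so the first panel is a description; outside AT1 cells Ager reached 29.3% (WT) and 31.7% (KO) in AT2 cells and Hopx 12.9% and 18.0% in ciliated cells.

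AT1 cells were the shallowest of the 4 named classes in both libraries, and far shallower in WT. The median AT1 cell of WT held 826 UMIs from 506 genes, and that of KO 4458 UMIs from 2001 genes, and 83 WT and 429 KO cells had 2000 UMIs or more. Other classes were deeper, with medians of 4427 UMIs in AT2, 4015 in Krt8+ and 5744 in ciliated cells of WT, and of 6496, 4997 and 7579 in KO. Mitochondrial RNA took a median of 7.80% of UMIs per WT and 4.28% per KO AT1 cell. Malat1, a nuclear RNA found in nearly every intact cell, had no UMI in 186 of the 321 WT and 117 of the 578 KO AT1 cells. At 500 UMIs per cell it was seen in 36.8% of WT and 74.2% of KO AT1 cells, against 76.7% and 83.9% of AT2 cells. The AT1 cells without Malat1 had medians of 695 UMIs in WT and 1212 in KO, but their 24 further AT1 genes (below) summed to 21337 and 19419 CPM, close to the 19251 and 21393 CPM of those with it. For some results, but not for each that moved, values in only the 135 WT and 461 KO cells with Malat1 are given below.

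Both sets also held RNA of other cell types, of different kinds. Of the WT AT1 cells, 143 (44.5%) had 2 or more markers of another cell type, mostly endothelial (76 cells) or immune (71 cells). Of the KO AT1 cells, 100 (17.3%) had them, mostly secretory (51 cells) or ciliated (43 cells). Scgb1a1, the secretoglobin of airway club cells, took 1% or more of UMIs in 9 WT and 41 KO cells. Those few cells weighed heavily: 1 WT barcode held 47.5% of the 20846 Scgb1a1 UMIs of WT AT1 cells. Scrublet, a doublet caller, marked 3 WT and 2 KO AT1 cells, and 8.37% of kept WT and 2.70% of kept KO barcodes, fewer than the 24.5% and 13.7% expected from the number of barcodes. Results are therefore given for all gated cells and for a screened set of 174 WT and 464 KO cells without these barcodes, which is smaller but had nearly the same depth (medians of 814 and 4198 UMIs).

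The steps of the gate removed other barcodes in each library. Of the barcodes with 3 or more markers, 955 in WT and 1508 in KO, Sftpc under 3% left 872 and 919. Among these, Ptprc was present in 298 WT and 18 KO barcodes and Pecam1 in 268 and 18. Col1a2 was present in 116 WT and 124 KO barcodes, Msln in 48 and 160, and Foxj1 in 15 and 89. The WT losses were therefore mainly to immune and endothelial genes and the KO losses to Sftpc, Msln, Col1a2 and Foxj1.

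AT1 cells were 1.06% of kept barcodes in WT (95% interval 0.951 to 1.19) and 3.70% in KO (3.41 to 4.00). Among barcodes that passed the epithelial gate the order was the opposite, with 222 AT1 cells of 1267 in WT (17.5%, 15.5 to 19.7) and 547 of 9460 in KO (5.78%, 5.32 to 6.27). Of the AT1 cells themselves, 69.2% in WT and 94.6% in KO passed the epithelial gate. Among AT1 and AT2 cells together, AT1 cells were 43.6% in WT and 10.6% in KO, beside 416 AT2 cells in WT and 4881 in KO. The share of epithelial barcodes was higher in WT in each of 16 other choices of cells, but the ratio moved. With both libraries gated at 2000 UMIs per cell it was 7.18% in WT and 4.03% in KO, and among barcodes with a Malat1 UMI 10.4% and 4.98%. The libraries also differ in depth and in the immune and endothelial barcodes that the sort left, and the part of these in the shares was not tested.

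The AT1 programme beyond the gate was at nearly the same level in both genotypes in all gated and in screened cells, and moved with other choices of cells. A list of 24 further AT1 genes, none used to choose the cells, summed to 19740 in WT and 21272 CPM in KO AT1 cells, a log2 ratio, KO over WT, of 0.11 (0.08 to 0.14). In the screened cells the sums were 23767 and 23806 CPM, a log2 ratio of 0.00 (-0.03 to 0.04). With gates at 500 and at 2000 UMIs per cell the log2 ratio was 0.25 and 0.19. Over the settings tried it ranged from -0.01 to 0.35. All 24 genes passed a mean of 20 CPM, and 0 of them were 2-fold higher or 2-fold lower in KO, beside 1.65% of 6676 genes higher and 3.64% lower over all genes that passed. Their median log2 ratio was 0.02, beside 0.03 over all genes that passed.

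Within the list, genes differed in direction. Aqp5, the water channel of the apical AT1 membrane, was at 733 in WT and 1338 CPM in KO (log2 ratio 0.87, 0.73 to 1.01). Cryab, a small heat shock protein, was at 695 and 1364 CPM (0.97, 0.83 to 1.12). These were the highest ratios of the list, and in the screened cells they were 0.73 for Aqp5 and 0.95 for Cryab. Cryab was more abundant in Krt8+ cells, at 1704 in WT and 1668 CPM in KO. In the cells with Malat1 Cryab was past 2-fold, at 1.18. On the lower side, Timp3, an inhibitor of matrix proteases, was at 1093 and 815 CPM (-0.42, -0.54 to -0.30) and Cav1, the coat protein of caveolae, at 652 and 510 CPM (-0.35, -0.51 to -0.20). In the cells with Malat1 the Cav1 levels were nearly equal, at 522 in WT and 501 CPM in KO.

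Most of the best known AT1 genes lay between these. Cldn18, the alveolar tight junction claudin, was at 1825 and 1905 CPM (0.06, -0.03 to 0.15). Emp2, a tetraspan membrane protein, was at 1762 and 1746 CPM (-0.01, -0.10 to 0.08). Vegfa, the growth factor that AT1 cells make for capillaries, was at 1094 and 1015 CPM (-0.11, -0.23 to 0.01). Clic5, an ezrin-linked channel family protein, was at 1557 and 1372 CPM (-0.18, -0.28 to -0.08). Of these 4 genes, the counting interval left out 0 for Clic5 only, and in the screened cells the ratio of Cldn18 was on the other side of 0, at -0.13. In the cells with Malat1 Cldn18 was at 1627 in WT and 1895 CPM in KO.

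**Figure D2:**
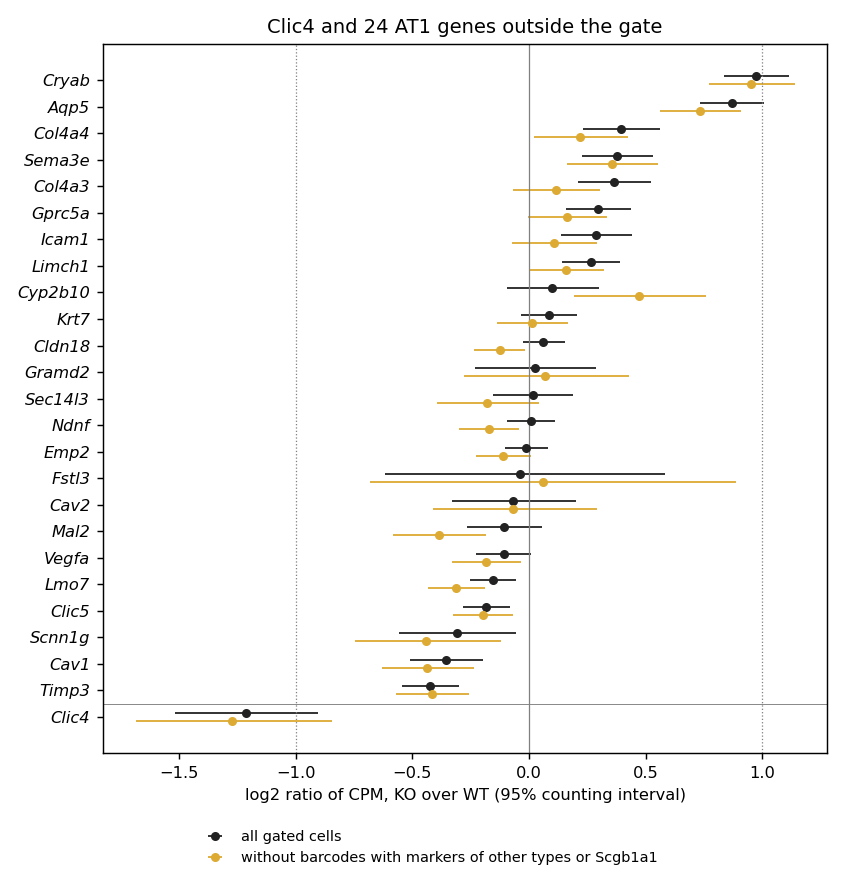
Log2 ratio of CPM, KO over WT (x axis), in AT1 cells for each of 24 AT1 genes outside the gate and for Clic4 (y axis), in all gated cells (black) and in the screened cells (yellow, named in the legend as those without barcodes with markers of other types or Scgb1a1), with exact 95% counting intervals as lines. The 24 genes lay between -0.42 and 0.97 in all gated cells, inside the dotted lines at 2-fold, and Clic4 lay at -1.21.

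Clic4, a chloride intracellular channel family gene, was at 204 in WT and 88.2 CPM in KO AT1 cells. The log2 ratio was -1.21 (-1.52 to -0.90), -1.27 in the screened cells and -0.90 (-1.26 to -0.53), short of 2-fold, in the cells with Malat1. It was seen in 96 of 321 WT cells and 135 of 578 KO cells, and at 500 UMIs in 15.9% and 2.94%. Its level in WT AT1 cells was close to that in WT AT2 cells (199 CPM) and below WT Krt8+ cells (362 CPM). KO values were lower in those classes too, at 117 CPM in AT2 and 161 CPM in Krt8+ cells, and in ciliated cells they were 161 in WT and 125 CPM in KO. The study chose Clic4 on these libraries, so its lower level here is not independent evidence. Clic4 is also expressed by endothelial cells, whose RNA was higher in the WT AT1 barcodes, and the part of that RNA in the difference was not tested. Its relatives Clic1 and Clic3 were at 209 and 519 CPM in WT and at 249 and 761 CPM in KO.

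Lists of AT1 biology were then counted by structure and function. Over all 6676 genes that passed, 1.65% were higher and 3.64% lower past 2-fold and the median was 0.03, and lists of this size hold too few genes for counts of 0 to 2 to be told apart from those shares. Of 22 basement membrane and adhesion genes, 19 passed, and 1 was higher and 1 lower past 2-fold, with a median of 0.05. Col4a3 and Col4a4, the collagen IV chains that AT1 cells add to the alveolar basement membrane, were at 587 and 527 CPM in WT and at 757 and 693 CPM in KO. Lama3, a laminin chain, was at 232 and 385 CPM (0.73, 0.49 to 0.99). Itga6, an integrin chain also made by endothelial cells, was the gene lower past 2-fold, at 60.5 and 27.6 CPM, and Itgb4, at 13.6 and 28.0 CPM from 9 WT UMIs, was the one higher, although its ratio was -0.05 without the cells with 2 listed markers of another type. In the screened set 0 of 19 were past 2-fold, with Itga6 at -0.67 and Itgb4 at 0.39.

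Of 14 ion and water transport genes, 11 passed, and Clic4 was the only gene past 2-fold, on the lower side, beside 3.64% lower over all genes. Of 12 that passed in the screened cells, 2 were lower, beside 3.54% lower over all genes there. They were Clic4 and Cftr, a chloride channel at 26.8 in WT and 13.3 CPM in KO. Cftr thus passed the mean of 20 CPM only through WT. The epithelial sodium channel subunits Scnn1a, Scnn1b and Scnn1g were at 489, 144 and 256 CPM in WT and at 400, 150 and 207 CPM in KO. Of 15 junction genes, 14 passed and 2 were higher, Cldn3 at 151 and 360 CPM and Cldn4 at 33.3 and 111 CPM. Both claudins are more abundant in Krt8+ cells, with 517 and 504 CPM in WT, and Cldn4 helped to choose those cells. Of 23 genes of caveolae, membrane scaffold and cytoskeleton, 23 passed and 2 were lower, Cavin1 at 315 and 152 CPM and Vim at 271 and 16.3 CPM. Over the settings tried the log2 ratio of Cavin1 ranged from -1.49 to -0.55, so it was not past 2-fold in all of them. Vim was under 20 CPM in KO, so it passed the filter only through WT. It is the intermediate filament of mesenchymal, endothelial and immune cells. The lists of these cells summed to 3923 in WT and 2754 CPM in KO (mesenchymal), 680 and 18.5 CPM (endothelial) and 4012 and 1712 CPM (immune). Within them, Sparc at 2400 and 2484 CPM and Cd74 at 1153 and 1177 CPM differed little. Their part in the Vim values was not tested.

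Of 22 signals that AT1 cells send, 17 passed and 0 were past 2-fold, with a median of 0.31, beside 1.65% higher, 3.64% lower and a median of 0.03 over all genes. Of 19 that passed in the screened cells 1 was higher, beside 2.88% higher and 3.54% lower over all genes there. It was Fgf18, a growth factor at 11.9 in WT and 28.5 CPM in KO, which passed the mean of 20 CPM only through KO. The signals included Pdgfa at 303 in WT and 376 CPM in KO, Wnt3a at 30.3 and 40.0 CPM, Wnt7a at 28.8 and 38.1 CPM, and Sema3e at 625 and 813 CPM. Sema3c, a guidance cue that was also abundant in Krt8+ cells, was at 104 and 53.3 CPM (-0.97, -1.38 to -0.54), and in the screened cells at -0.23. Igfbp7, a secreted binding protein, was at 1064 and 1585 CPM (0.58, 0.46 to 0.69).

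YAP and TEAD genes come next. Of 22 genes, 19 passed and 0 were past 2-fold, beside 1.65% higher and 3.64% lower over all genes, the median was -0.06, and the sum was 2895 in WT and 2771 CPM in KO. Tead1, the most abundant TEAD factor, was at 454 and 500 CPM (0.14, and -0.01 in the screened cells), and Yap1 at 40.9 and 53.3 CPM. The target genes Ctgf and Cyr61 were at 247 and 366 CPM in WT and at 237 and 342 CPM in KO. Ankrd1, whose upstream window held the pair of TEAD matches, was at 121 and 79.0 CPM (-0.62, -0.99 to -0.23) and at -0.79 in the screened cells. In AT2 cells Ankrd1 was at 1.63 in WT and 0.881 CPM in KO.

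TGF-beta genes are described because that pathway takes part in AT1 differentiation. Of 22 genes, 17 passed, 0 were higher and 2 lower past 2-fold, with a median of -0.19, beside 1.65% higher, 3.64% lower and a median of 0.03 over all genes. Of 16 that passed in the screened cells, 1 was higher and 1 lower, and the median was -0.07. Over all genes there, 2.88% were higher and 3.54% lower. The 2 lower in all gated cells were Clic4, which is on this list too, and Tgfbi, a secreted matrix protein. Tgfbi was at 42.4 in WT and 5.20 CPM in KO from 28 and 16 UMIs, so it passed the mean of 20 CPM only through WT. In the screened cells the 1 lower was Clic4, so Tgfbi was not called there. Tgfb2, an isoform high in AT1 cells here, was at 212 and 184 CPM (-0.20, -0.47 to 0.07), and at 0.12 in the screened cells. Receptors Tgfbr1 and Tgfbr2 were at 45.4 and 213 CPM in WT and at 31.9 and 187 CPM in KO. Cdkn2b, a cell cycle inhibitor that TGF-beta induces, was at 89.3 and 155 CPM (0.79, 0.40 to 1.21), and at 1.07 in the screened cells. For Tgfbr2 and Tgfb2 the interval included 0.

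Among lineage factors, 12 of 18 passed and 0 were past 2-fold, beside 1.65% higher and 3.64% lower over all genes, too few genes to be told apart from those shares. Nkx2-1 was at 213 in WT and 253 CPM in KO AT1 cells, Gata6 at 106 and 117 CPM, and Foxa2 at 109 and 94.3 CPM. Etv5, a factor of AT2 cells, was at 28.8 and 39.0 CPM, beside 628 and 570 CPM in AT2 cells. The log2 ratio of Gata6 was 0.14 in all gated and -0.03 in the screened cells, and that of Etv5 0.44 and -0.16.

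AT1 cells were then set against AT2 and Krt8+ cells of the same library, which gives each difference once in each genotype. All 24 AT1 genes outside the gate were 2-fold higher in AT1 than in AT2 cells in WT and in KO, beside 20.1% of 6410 genes in WT and 23.1% of 6226 genes in KO. Against Krt8+ cells (4 or more of Krt8, Krt18, Krt19, Cldn4, Sfn and Cdkn1a and at most 2 AT1 markers), 18 of 24 were 2-fold higher in WT and 22 of 24 in KO, beside 9.06% of 7023 and 7.08% of 6861 genes. Cryab was 2-fold lower in AT1 than in Krt8+ cells of WT (-1.29). The list summed to 3300 CPM in AT2 and 7659 CPM in Krt8+ cells of WT, and to 2909 and 6964 CPM in KO. The order AT1, Krt8+, AT2 was therefore the same in both libraries.

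Ranked by the lower of the 2 libraries, the genes that stood highest in AT1 over AT2 cells were Rasgrf2, Sema3a, Nt5e, Tgfb2 and Cped1. Rasgrf2, an exchange factor for Ras and Rac, was at 148 in WT and 206 CPM in KO AT1 cells, and at 0.544 and 0.243 CPM in AT2 cells. Sema3a, a guidance cue, was at 360 and 439 CPM in AT1 and 1.63 and 1.91 CPM in AT2 cells. Nt5e, the enzyme CD73 that makes adenosine, was at 160 and 164 CPM, and Scel, a protein of cell envelopes, at 157 and 182 CPM. The next were Scel, Sema3e, Ankrd1, Gpm6a, Bdnf, Plod2, Cdh13, Sh3rf2, Scnn1g and Ctgf. In ciliated cells Nt5e was at 115 in WT and 84.6 CPM in KO. Sema3e was there at 581 and 602 CPM, beside 625 and 813 CPM in AT1 cells. These 2 genes were thus not particular to AT1 cells, and the others were at 6.99 CPM or less in ciliated cells. Of these 15 genes, Cdh13 and Ankrd1 had the log2 ratios farthest from 0 between genotypes, at 0.63 (0.31 to 0.97) and -0.62.

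**Figure D3:**
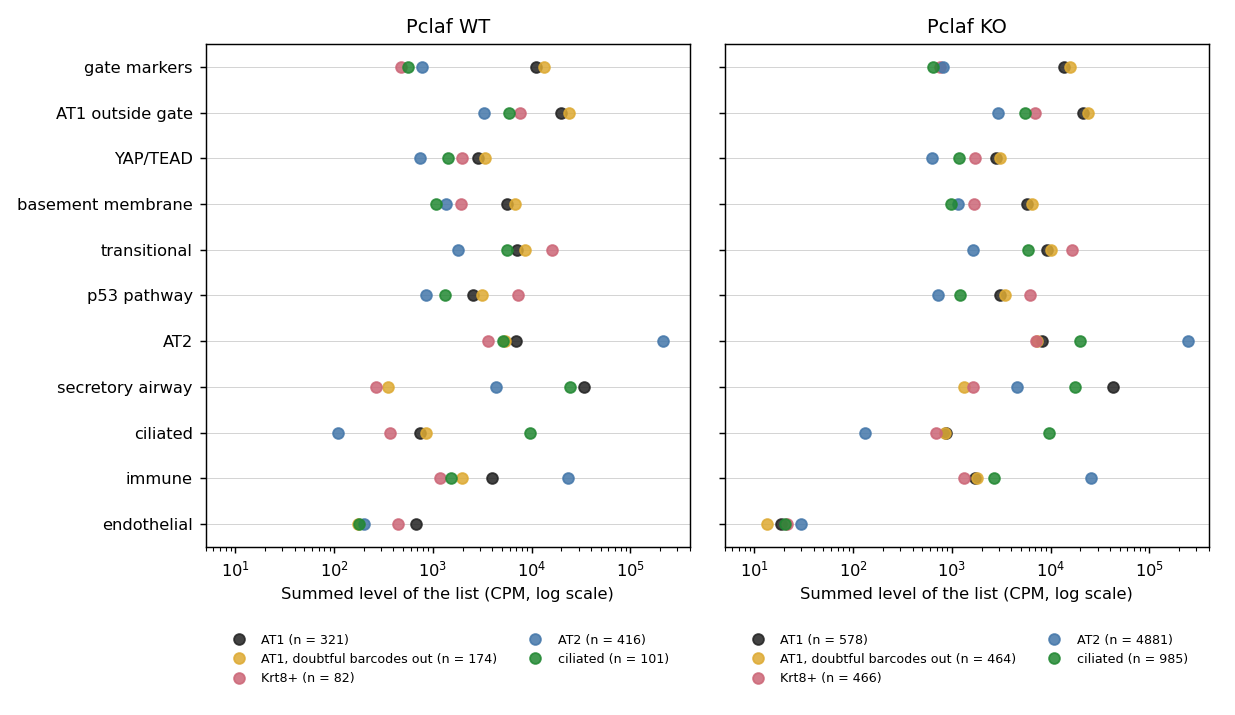
Summed level of 11 gene lists (x axis, CPM on a log scale) in AT1 cells, screened AT1 cells (doubtful barcodes out), Krt8+, AT2 and ciliated cells (colours) of each library (panels). In both libraries AT1 cells had the highest gate markers, AT1 genes, YAP/TEAD and basement membrane sums, while the endothelial sum of AT1 cells was 680 in WT and 18.5 CPM in KO. The limits of the gates on AT1 markers in part set the sums of gate markers and AT1 genes.

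The number of markers in a cell separated AT1 cells of different content. Of the WT cells, 136, 91, 46, 24 and 24 had 3, 4, 5, 6 and 7 markers, and of the KO cells 200, 110, 80, 63 and 125. Cells with 5 or more markers numbered 94 WT (29.3%) and 268 KO (46.4%). The sum of the 24 AT1 genes went from 8968 CPM at 3 markers to 45348 CPM at 7 markers in WT, with 25942 CPM at 5 and 24759 CPM at 6 markers, and from 8973 to 41737 CPM in KO. The sum of the 17 AT2 genes other than Sftpc, which the gate capped, went the other way, from 8192 to 511 CPM in WT and from 7672 to 908 CPM in KO. Median depth from 3 to 7 markers was 785.5, 737, 812, 1559 and 4755.5 UMIs in WT and 4152, 4243.5, 2987, 3561 and 6447 UMIs in KO, so the cells with 7 markers were the deepest but there was no steady order below them, and its part was not tested. In cells with 5 to 7 markers the 24 genes summed to 34700 in WT and 34399 CPM in KO.

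Single cells spread widely around these sums. The 24 genes took a median of 1.58% of UMIs per WT AT1 cell, with a range from 0 to 11.2%, and 2.05% per KO cell, from 0 to 6.48%. In AT2 cells the medians were 0.297% and 0.263%. In the cells with 5 to 7 markers they were 3.25% in WT and 3.51% in KO, and in those with 3 or 4 markers 1.33% and 1.11%.

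**Figure D4:**
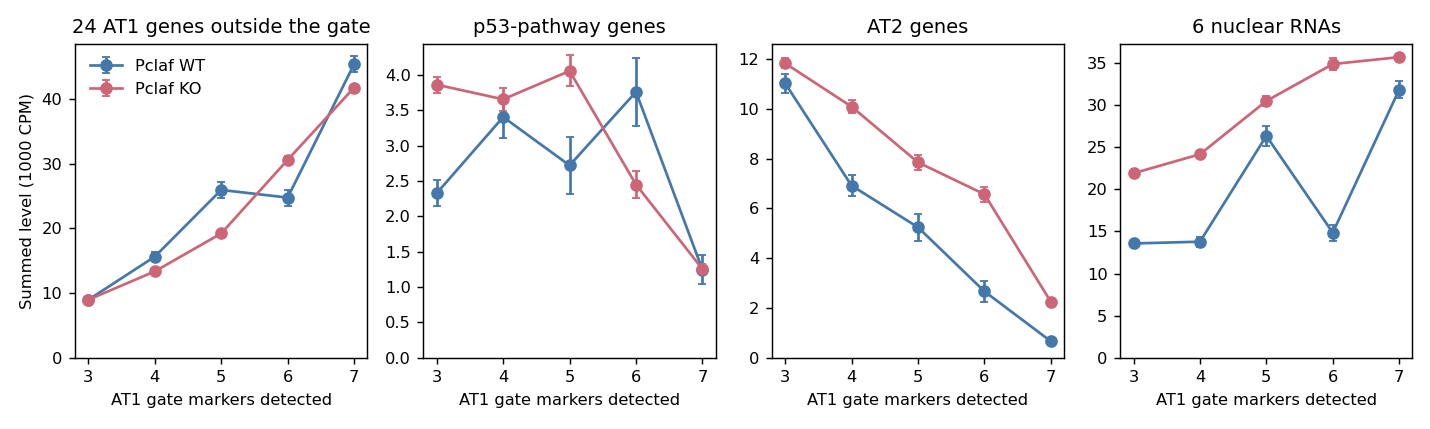
Summed level (y axis, 1000 CPM) of 4 gene lists in AT1 cells by the number of gate markers detected (x axis) in WT and KO, with approximate (normal) 95% counting intervals as bars; the AT2 panel includes Sftpc, which the gate capped. The 24 AT1 genes reached 45348 in WT and 41737 CPM in KO at 7 markers, where p53-pathway genes were at 1247 and 1255 CPM.

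Transitional genes were present in AT1 cells and were somewhat higher in KO. The list of 18 summed to 7195 in WT and 9217 CPM in KO AT1 cells, a log2 ratio of 0.36 (0.31 to 0.40), and of 0.23 (0.17 to 0.29) in the screened cells. Of the 17 genes that passed, 2 were higher, Cldn4 and Nupr1, and 1 was lower, Fn1, past 2-fold, beside 1.65% higher and 3.64% lower over all genes. In the screened set Nupr1 was no longer past 2-fold, at 0.67. Without the 6 genes that chose the Krt8+ cells, the list summed to 4065 in WT and 4982 CPM in KO AT1 cells, to 1156 and 1060 CPM in AT2 cells and to 8359 and 9090 CPM in Krt8+ cells. The AT1 cells thus lay between AT2 and Krt8+ cells in both libraries. Ciliated cells, at 3682 in WT and 3840 CPM in KO, lay there too, so this place is not particular to AT1 cells.

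The keratins of the list were Krt8 at 775 in WT and 928 CPM in KO, Krt18 at 590 and 1050 CPM (0.83, 0.68 to 0.99) and Krt19 at 575 and 783 CPM. Krt8 had a log2 ratio of 0.26 that became -0.07 in the screened cells, while Krt18 stayed above 0 at 0.55. Cldn4, a claudin of the transitional state, was seen in 13 WT and 105 KO cells, with a log2 ratio of 1.74 (1.11 to 2.43). Nupr1, a stress-response chromatin protein, was at 118 and 270 CPM, with 26.6% of its KO UMIs in 1 cell. Fn1, fibronectin, was at 165 and 42.0 CPM, with 29.4% of its WT and 31.0% of its KO UMIs in 1 cell. Lgals3 and Anxa1, a galectin and an annexin, were at 1075 and 1006 CPM in WT and at 1529 and 1388 CPM in KO.

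Depth changed how many AT1 cells passed for transitional ones. Of the AT1 cells, 45 of 321 in WT and 278 of 578 in KO (48.1%) had 4 or more of the 6 genes of the Krt8+ gate. At 500 UMIs per cell these were 3 of 321 (0.935%, 0.193 to 2.71) and 30 of 578 (5.19%, 3.53 to 7.33). Among screened cells with 2000 or more UMIs, 25 WT and 199 KO cells had 4 or more of them and 17 and 136 had fewer. The 24 AT1 genes summed to 15403 CPM in the former and 41688 CPM in the latter in WT, and to 19743 and 31941 CPM in KO. The p53 genes other than Cdkn1a, which the split used, summed to 2603 and 1454 CPM in WT and to 2452 and 1682 CPM in KO. AT1 cells with the Krt8+ genes were thus lower in AT1 genes and higher in the other p53 genes in both libraries, a split that was made on the cells' own values.

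Igfbp2 gave a similar split among the same deep cells. It was present in 20 of 42 WT cells and in 151 of 335 KO cells. With Igfbp2, the 24 AT1 genes summed to 33235 in WT and 35196 CPM in KO, and without it to 15587 and 14966 CPM. The transitional genes were at 8023 and 8246 CPM with Igfbp2 and at 11982 and 11898 CPM without it. Igfbp2 is a gate marker, and the AT1 sum went with the number of gate markers (above), so these sums only describe cells split on a value that chose them.

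The p53 pathway list had 16 of 18 genes past the filter and 0 past 2-fold, with a median of 0.26, beside 1.65% higher, 3.64% lower and a median of 0.03 over all genes. Cdkn1a, which encodes p21, was at 985 in WT and 1125 CPM in KO, and Mdm2, the ubiquitin ligase of p53, at 96.9 and 158 CPM (0.71, 0.33 to 1.11). In Krt8+ cells, which Cdkn1a helped to choose, it was at 2756 and 2522 CPM. Immediate early genes (14 of 15 passed) and heat shock genes (12 of 12) had 0 genes past 2-fold and medians of 0.20 and 0.11, beside 1.65% higher and 3.64% lower over all genes. Hspa1a, an inducible chaperone, was at 0.43 and in the screened set past 2-fold, at 1.01, where 2.88% of all genes were higher. Hspb1, a small heat shock protein like Cryab, was at 368 and 668 CPM (0.86, 0.67 to 1.06), and at 0.49 in the screened cells.

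Among 18 interferon genes, 11 passed, 1 was higher and 2 were lower, beside 1.65% higher and 3.64% lower over all genes. Of 12 that passed in the screened cells 1 was higher and 3 were lower, beside 2.88% higher and 3.54% lower over all genes there. The 3 lower were Ifitm3, Ifi27l2a and Irf7. Isg15, a ubiquitin-like protein, was at 31.8 in WT and 92.4 CPM in KO (1.54, 0.90 to 2.25). Ifitm3, a membrane protein that restricts viruses, was at 380 and 172 CPM (-1.14, -1.36 to -0.92) and Ifi27l2a at 101 and 33.5 CPM. Both are also made by endothelial or immune cells, whose RNA was higher in the WT barcodes, and its part was not tested. Of 12 antigen presentation genes, 11 passed and 0 were past 2-fold, beside the same shares over all genes. B2m, the light chain of MHC class I, was at 1353 and 842 CPM (-0.68, -0.79 to -0.57), while H2-K1 and H2-D1 were at 922 and 901 CPM in WT and at 938 and 946 CPM in KO. Of 18 cell cycle genes, 6 passed, 1 of them higher, beside 1.65% higher and 3.64% lower over all genes. Of 5 that passed in the screened cells 0 were higher and Stmn1, a microtubule regulator, was lower (-1.05). Over all genes there, 2.88% were higher and 3.54% lower. The 1 gene higher in all gated cells was Top2a, a topoisomerase of dividing cells, at 13.6 and 29.0 CPM. Top2a thus passed the mean of 20 CPM only through KO. It had 52.8% of its 89 KO UMIs in 1 cell, and in the screened cells the order was the opposite, with 5 UMIs in WT and 4 in KO (14.9 and 1.84 CPM).

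AT2 genes in AT1 cells were set beside their level in ciliated cells, a class that should lack them. Sftpc, which the gate capped, was seen in 121 of 321 WT cells (37.7%) and 571 of 578 KO cells (98.8%), at 2176 and 3553 CPM. In ciliated cells it was seen in 42.6% and 99.7%, at 2020 and 12720 CPM. Ciliated cells were deeper, and at 500 UMIs per cell Sftpc was seen in 23.4% of WT and 62.1% of KO AT1 cells against 11.9% and 48.4% of ciliated cells. Its detection at equal depth was thus higher in AT1 cells, while its summed level in KO was lower, and no order is read from these values. The 17 AT2 genes other than Sftpc summed to 4840 in WT and 4587 CPM in KO AT1 cells, a log2 ratio of -0.08 (-0.13 to -0.02), beside 3096 and 7033 CPM in ciliated cells and 77203 and 82403 CPM in AT2 cells. In the screened cells their ratio was on the other side of 0, at 0.38 (0.28 to 0.48), with 2793 and 3641 CPM, and in the cells with Malat1 it was -0.23 (-0.29 to -0.17). With Sftpc the list of 18 was at 0.21 (0.17 to 0.26) in all gated cells. No direction is therefore read from the sum. Of 17 of the 18 that passed, 3 were higher past 2-fold, Lamp3 (which was at -0.30 in cells with 5 or more markers), Napsa and Hc, and 1 was lower, Lyz2, which macrophages also make, at 1966 and 509 CPM, beside 1.65% higher and 3.64% lower over all genes. Among the screened cells 8 of 17 were higher and 0 lower, with a median of 0.83, beside 2.88% higher and 3.54% lower over all genes. Sftpd, a collectin, was at 489 and 867 CPM in AT1 cells and at 168 and 457 CPM in ciliated cells.

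Of 6676 genes with a mean of 20 CPM or more, 94.7% lay within 2-fold, 110 were higher in KO and 243 lower. In the screened cells 194 of 6732 (2.88%) were higher and 238 (3.54%) lower.

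The genes most clearly lower in KO were mostly of immune and endothelial cells. By the bound of the interval nearest to 0, they were Laptm5, Krt79, C1qc, P3h3, Ctss, Calcrl, C1qa, Clec4n, C1qb and Gpihbp1. Each was at 8.46 CPM or less in KO, so all passed the mean of 20 CPM only through WT. Laptm5, a lysosomal protein of leukocytes, was at 142 in WT and 1.30 CPM in KO, and C1qa, a complement subunit of macrophages, at 244 and 5.53 CPM. Calcrl, a receptor of endothelial cells, was at 176 and 3.25 CPM. P3h3 had 69 WT UMIs, all in 1 cell, and Krt79 had 53.8% of its 80 in 1 cell. Of the WT UMIs of C1qc, C1qa, Ctss and C1qb, 54.9%, 52.2%, 40.8% and 40.4% were in 1 cell.

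Most genes of the immune and endothelial lists that passed the level filter did so only through WT, so counts of those that passed are not given. The immune list of 10 summed to 4012 in WT and 1712 CPM in KO, was led by Lyz2 in WT and by Cd74 in KO, both also AT2 genes, and had Cd3e at 0 in both. The endothelial list of 10 summed to 680 and 18.5 CPM and had no gene at 0. Hemoglobin genes, at 1037 and 21.1 CPM, had 84.6% of WT Hbb-bs UMIs in 1 cell. In the screened cells they were at 1860 in WT and 25.2 CPM in KO, so the screen did not lower them. In the AT1 cells with Malat1 they were at 79.1 in WT and 19.1 CPM in KO. The endothelial sum was lower in KO in other classes too, at 203 and 29.8 CPM in AT2, 440 and 21.6 CPM in Krt8+ and 180 and 20.6 CPM in ciliated cells. Without Lyz2 and Cd74, the other 8 immune genes summed to 893 in WT and 25.7 CPM in KO AT1 cells. In other classes they were lower in KO as well, at 197 and 20.1 CPM in AT2, 177 and 23.1 CPM in Krt8+ and 151 and 23.5 CPM in ciliated cells. With Lyz2 and Cd74 the immune sum was higher in KO there, at 23208 and 25844 CPM in AT2, 1190 and 1320 CPM in Krt8+ and 1540 and 2671 CPM in ciliated cells. Hemoglobin genes were lower in KO AT2 cells (70.7 and 27.5 CPM) and Krt8+ cells (94.1 and 19.7 CPM) but not in ciliated cells (50.9 and 58.9 CPM). Mgp, a matrix inhibitor of calcification, was at 1241 CPM in WT AT1 cells in 186 of 321 cells and at 209 CPM in KO in 245 of 578 cells. Over the settings tried its log2 ratio ranged from -3.39 to -0.57, so it was not past 2-fold in all of them.

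The genes most clearly higher in KO were in part carried by few barcodes and in part spread over many cells. The 10 were Reg3g, Bpifb1, Krt15, Scgb3a1, Tff1, Tff2, Krtap17-1, Xist, Cldn4 and Hist1h4d. Reg3g, Bpifb1, Krt15, Tff1, Tff2 and Hist1h4d were at 15.1 CPM or less in WT and passed the mean of 20 CPM only through KO. Krtap17-1 was in 89 KO cells, but with at least 5 of 7 markers its log2 ratio was -0.27 (-1.01 to 0.55). Reg3g, an antimicrobial lectin, had 449 UMIs in KO, 94.0% of them in 1 cell, and 1 in WT. Scgb3a1 had 87.6% of 2366 KO UMIs in 1 cell, Tff2 98.4% of 246, and Tff1, a trefoil peptide, 100% of 145. Krt15, a keratin of basal cells, had 0 UMIs in WT and 152 in 7 KO cells, at least 3.44 log2 units higher against a floor of 3 counts in WT.

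Others were spread over many cells. Xist was in 29 WT and 332 KO AT1 cells, at 304 and 773 CPM (1.34, 1.14 to 1.56), in the same direction as in the whole libraries. In cells with 5 to 7 markers it was at 574 in WT and 721 CPM in KO (0.33), short of 2-fold. Hist1h4d, a histone gene, was in 10 and 124 cells. In the screened cells the leading genes were Tff1, Scgb1a1, Hist3h2a, Cd59a, Xist, Foxp2, Ubb, Sftpd, Cryab and Hist1h4d. Of these, Tff1 rested on 1 KO cell (above). Tff1, Hist3h2a, Cd59a and Hist1h4d were at 11.9 CPM or less in WT screened cells, so they passed the mean of 20 CPM only through KO. The screen itself capped Scgb1a1 at 1% of UMIs, so its place there is only a description. Foxp2, a forkhead factor of lung epithelium, was at 80.2 in WT and 202 CPM in KO over all gated cells (1.33, 0.92 to 1.76), in 33 and 237 cells, and its log2 ratio was 1.42 in the screened cells. Ubb, a ubiquitin gene, was at 1277 and 2386 CPM (0.90, 0.80 to 1.01). Cd59a, an inhibitor of complement, was in 2 WT and 75 KO cells, at 3.03 and 32.5 CPM.

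On the lower side the screened cells named P3h3, Chil3, Ctla2a, Nptx1, Gm2245, Ptprb, Postn, Cyyr1, Calcrl and Gtf2ird2. Each was at 2.75 CPM or less in KO screened cells, so these too passed the mean of 20 CPM only through WT. Chil3, a chitinase-like protein of macrophages, had 27 UMIs in WT and 0 in KO screened cells, and Ptprb, a phosphatase of endothelial cells, had 20 and 3. P3h3, Nptx1 and Gm2245 each had 100% of their WT UMIs in 1 cell. In the screened set the 8 immune genes other than Lyz2 and Cd74 summed to 158 in WT and 17.4 CPM in KO, and the endothelial list to 173 and 13.3 CPM. RNA of these cells was thus still present in the screened WT cells, although the screen was made on markers of those cells.

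**Figure D5:**
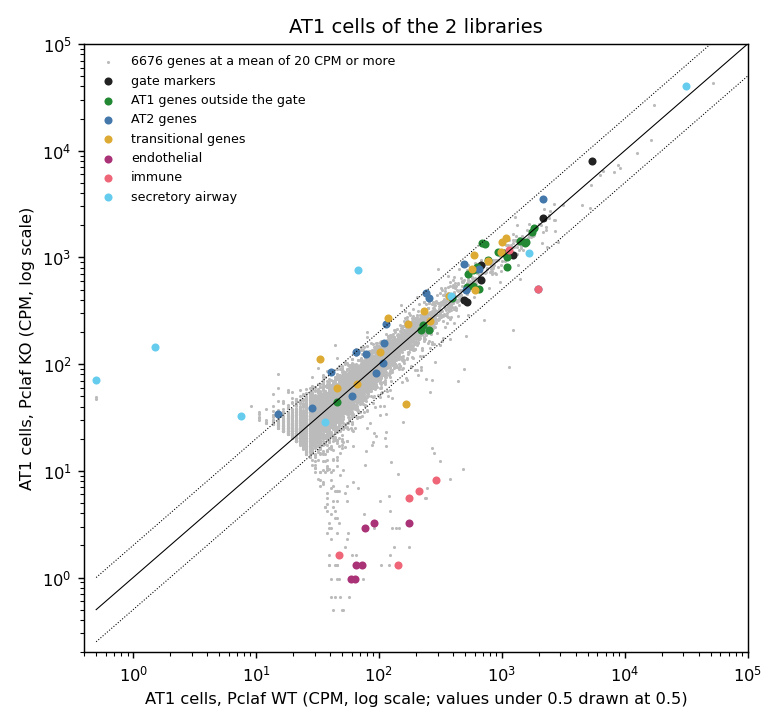
CPM of 6676 genes in AT1 cells of the WT library (x axis) and the KO library (y axis), both on log scales, with the line of equality and dotted lines at 2-fold; values under 0.5 CPM are drawn at 0.5. The 24 AT1 genes lay between the dotted lines. Genes of the endothelial and immune lists are drawn only where they passed the level filter, most of them through WT, so their place below the line follows from the filter.

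Malat1, a nuclear long RNA, was at 17202 in WT and 27000 CPM in KO AT1 cells (0.65, 0.62 to 0.68), and was seen in 135 of 321 WT and 461 of 578 KO cells. In AT2 cells it was at 12349 and 13650 CPM and in Krt8+ cells at 23061 and 30091 CPM. By number of markers, from 3 to 7, Malat1 was at 12892, 13255, 25395, 13885 and 30034 CPM in WT, with no steady order, and at 21133, 23523, 29857, 33628 and 34303 CPM in KO. Neat1, another nuclear long RNA, was at 814 in WT and 832 CPM in KO (0.03). The part of Malat1 in the other differences was not tested, beyond the values given for cells with Malat1.

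Cells just inside and just outside the gate show what the limits select. The 333 WT and 477 KO barcodes with 2 markers that met the other conditions had sums of 3861 and 3757 CPM for the 24 AT1 genes, against 8968 and 8973 CPM at 3 markers. Scgb1a1 took 101797 and 318906 CPM in the barcodes with 2 markers. Cells with Sftpc at 2% to 3% of UMIs were 2 in WT and 17 in KO, and those at 3% to 4% were 3 and 21, with AT1 sums of 12299 and 13038 CPM inside and 8236 and 12771 CPM outside. The most frequent triple at 3 markers was Ager, Hopx and Akap5, in 31 of 136 WT and 79 of 200 KO cells.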

How the data were processed

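The authors sequenced 10x Genomics 3′ libraries and deposited 1 filtered matrix of raw UMI counts per library, with 31053 genes of GRCm38. The labels name Cell Ranger 3.1.0 and STAR, while the matrix header names Cell Ranger 5.0.0. Barcodes with over 200 and under 5000 genes and under 20% mitochondrial UMIs were kept. Doublets were called with Scrublet (scanpy 1.11.5) and were not removed. UMIs were summed per class and library and divided by their total (CPM), with Python 3.11.15, numpy 2.4.6, scipy 1.17.1 and pandas 2.3.3. Log2 ratios have exact conditional Poisson 95% intervals and shares Clopper-Pearson intervals, a count of 0 was set at a floor of 3 counts, and genes with a mean of 20 CPM were counted as called past 2-fold. With 1 library per genotype there is no test, and reads of 1 molecule are collapsed by UMI, so intervals cover counting error only. Named genes were the list members, Clic4, the 15 highest in AT1 over AT2 cells by the lower library (at least 50 UMIs in each) and, per direction, the 10 ranked first by the interval bound nearest 0. The members and lists were chosen with earlier results of these data known. The screened set and the sets with 5 markers, at 500 UMIs and with Malat1, and the AT2 sum without Sftpc and the immune sum without Lyz2 and Cd74, were chosen after seeing the data.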

Additional observations from a re-analysis of the deposited data

How the results depend on the processing

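No paired analysis was possible because each genotype had 1 library. For the same reason no replicate could be left out. Sums of AT2 genes here include Sftpc unless said otherwise. With at least 2 of 7 markers, the WT share of AT1 cells among epithelial barcodes was 25.9%, the KO share was 10.3%, genes 2-fold lower in KO numbered 536, the log2 ratio of the 24 AT1 genes was 0.045 and the log2 ratio of transitional genes was 0.19. With at least 4 of 7 markers, the WT share of AT1 cells among epithelial barcodes was 11.4%, the KO share was 3.84%, the log2 ratio of the 24 AT1 genes was 0.050, the log2 ratio of transitional genes was 0.21 and the log2 ratio of AT2 genes was 0.53. With Sftpc under 1% of UMIs, the KO share was 5.2%, the log2 ratio of transitional genes was 0.44 and the log2 ratio of AT2 genes was 0.077. With 1 UMI of each excluded gene allowed, genes 2-fold lower in KO numbered 404, the log2 ratio of the 24 AT1 genes was 0.35, the log2 ratio of transitional genes was 0.45 and the log2 ratio of AT2 genes was -0.025. With no upper limit on genes, the log2 ratio of the 24 AT1 genes was 0.018 and the log2 ratio of AT2 genes was 0.42. With a mitochondrial limit of 10%, the log2 ratio of transitional genes was 0.30 and the log2 ratio of AT2 genes was 0.13. With gates at 2000 UMIs per cell, the WT share of AT1 cells among epithelial barcodes was 7.18%, the KO share was 4.03%, genes 2-fold lower in KO numbered 461, the log2 ratio of the 24 AT1 genes was 0.19 and the log2 ratio of AT2 genes was 0.38. Without cells with 2 listed markers of another type, genes 2-fold higher in KO numbered 578, genes 2-fold lower in KO numbered 452, the log2 ratio of transitional genes was 0.19 and the log2 ratio of AT2 genes was 0.47. With 1 in 6 of the KO cells drawn at random, genes 2-fold higher in KO numbered 252, the log2 ratio of the 24 AT1 genes was 0.067, the log2 ratio of transitional genes was 0.30 and the log2 ratio of AT2 genes was 0.27. Without cells of Scgb1a1 at 1% or more, the log2 ratio of AT2 genes was 0.28. Without cells with 2 markers of another type, the WT share of AT1 cells among epithelial barcodes was 21.4%, the KO share was 6.96%, genes 2-fold higher in KO numbered 195, the log2 ratio of the 24 AT1 genes was 0.078 and the log2 ratio of transitional genes was 0.23. In the screened cells, the WT share of AT1 cells among epithelial barcodes was 21.1%, the KO share was 6.92%, genes 2-fold higher in KO numbered 194, the log2 ratio of the 24 AT1 genes was 0.0024, the log2 ratio of transitional genes was 0.23 and the log2 ratio of AT2 genes was 0.46. With at least 5 of 7 markers, the WT share of AT1 cells among epithelial barcodes was 6.63%, the KO share was 2.78%, genes 2-fold higher in KO numbered 249, the log2 ratio of the 24 AT1 genes was -0.013, the log2 ratio of transitional genes was 0.14 and the log2 ratio of AT2 genes was 0.84. With gates at 500 UMIs per cell, the KO share was 7.78%, genes 2-fold higher in KO numbered 217, genes 2-fold lower in KO numbered 417, the log2 ratio of the 24 AT1 genes was 0.25, the log2 ratio of transitional genes was 0.55 and the log2 ratio of AT2 genes was 1.14. In cells with a Malat1 UMI, the WT share of AT1 cells among epithelial barcodes was 10.4%, the KO share was 4.98%, the log2 ratio of the 24 AT1 genes was 0.15, the log2 ratio of transitional genes was 0.26 and the log2 ratio of AT2 genes was 0.028. Without AT1 cells with 4 Krt8 genes, genes 2-fold higher in KO numbered 310, genes 2-fold lower in KO numbered 488, the log2 ratio of the 24 AT1 genes was 0.20 and the log2 ratio of AT2 genes was 0.30. With the median log2 ratio set to 0, the log2 ratio of the 24 AT1 genes was 0.078. With the AT2 list without Sftpc, chosen after seeing the data, the log2 ratio of AT2 genes was -0.078. With a mean CPM of at least 10, genes 2-fold higher in KO numbered 257 and genes 2-fold lower in KO numbered 517. With a mean CPM of at least 50, genes 2-fold higher in KO numbered 24 and genes 2-fold lower in KO numbered 76. Of 308 single genes recomputed, 12 that were past 2-fold changed sign in at least 1 setting, 24 values in all. Top2a was higher in KO over all gated cells, but it was at -0.62 with at least 2, at -3.07 with at least 4 and at -1.54 with at least 5 of 7 markers, at -0.39 with gates at 2000 and -3.33 at 500 UMIs, at -1.46 without cells with 2 listed markers of another type, at -2.91 without cells with 2 markers of another type, at -0.43 without cells of Scgb1a1 at 1% or more, at -3.02 in the screened cells and at -2.44 without AT1 cells with 4 Krt8 genes. Ltf was at -2.09 with 1 in 6 of the KO cells, -2.01 without cells with 2 markers of another type and -1.11 in the screened cells. Ndrg1, a transitional gene under the level filter, was at 0.54 without cells with 2 listed markers of another type, where Itgb4 was at -0.047, and at 0.81 in cells with Malat1. With 1 in 6 of the KO cells Scgb3a1 was at -2.45 and Tff2 at -3.09. With at least 5 of 7 markers Krtap17-1 was at -0.27 and Lamp3 at -0.30. With gates at 500 UMIs Nupr1 was at -0.093 and P3h3 at 0.57. With at least 2 of 7 markers Lrg1 was at 0.46, and with gates at 2000 UMIs Hba-a1 was at 0.20. The cause of these moves was not tested. The depth of WT AT1 cells, the foreign RNA in both sets and the single library per genotype limit every ratio between genotypes.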
